A study of Mus musculus with 8 samples.

Results

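The genes described here form the receiving side of inhibitory synapses: subunits of GABA-A, GABA-B and glycine receptors, a postsynaptic scaffold protein, an adhesion protein and the transporters that set neuronal chloride. The list held 27 gene names, which were matched to the names of the non-control spots of a mouse expression array carrying 34836 gene names. All 27 were found, on 41 probes. A probe entered the tests if all arrays of 1 nucleus or more showed it well above background, and 25 of the 27 genes had such a probe. Of these, 22 were well above background on all 8 arrays, and Gabra5, Glrb and Glra3 on 7, 7 and 4 of them. Gabra6 and Gabrr2 had no kept probe and were not tested.

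The arrays profiled pooled neurons cut by laser microdissection from 3 hypothalamic nuclei, the dorsomedial hypothalamus (DMH, 3 arrays), the ventromedial hypothalamus (VMH, 3 arrays) and the arcuate nucleus (Arc, 2 arrays). Every group came from female mice aged 2 months that carried the Nkx2-1-CreERT2 driver and a Rosa-ZsGreen reporter and had received tamoxifen, a drug that activates the recombinase. The green label therefore marked cells in which the Nkx2-1 driver had been active at the time of the injection, and no unlabelled or untreated group was used here. Neurons were pooled, and the labels give neither the animals behind a sample nor their number, so the p-values below rest on a spread between samples that may be only technical.

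GABA-A and glycine receptors are pentameric chloride channels of one gene family, and their subunit makeup sets where the receptor sits, how long it conducts and which drugs act on it. GABA-B receptors are G-protein-coupled dimers with slower effects. Whether opening a chloride channel inhibits a neuron depends on cotransporters that load chloride into the cell or extrude it. In the hypothalamus, GABA and its receptors are known for their part in circuits of feeding, body temperature and reproduction.

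Each value below is a log2 intensity relative to the 75th percentile of its own array, so that 0 is a signal at that percentile. Signals of different probes depend on the probe, so levels are compared between nuclei for a gene and never between genes. The 75th percentile itself lay between 2107 and 3042 intensity units on the DMH arrays, 1866 and 2036 in VMH and 1806 and 1818 on the Arc arrays, and 72.4 to 78.7% of probes were well above background. The number of arrays limits the precision. Arrays correlated at r = 0.940 to 0.964 within a nucleus and at 0.905 to 0.951 between nuclei, over the 27422 genes tested, which are not independent. The labelled nuclei had their own markers: 5 of 5 DMH neuron markers were higher in DMH, 5 of 5 VMH markers in VMH and 7 of 7 Arc markers in Arc, each against the mean of the other nuclei (limma, adjusted p under 0.05). The lists were chosen with earlier results of these data known, so these counts are no independent check of the nuclei.

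Differences were taken between each nucleus and the mean of the rest, and between pairs of nuclei, in 1 limma model over 27422 genes with Benjamini-Hochberg adjustment and a threshold of 0.05. In VMH against the mean of DMH and Arc, 3 of the 25 tested genes passed, Gabrb1 and Glra1 higher and Gabre lower, where 1.34% of all genes passed. An unadjusted limma p under 0.05 was reached there by 11 of 25, against 13.1% of all genes. In DMH against the mean of VMH and Arc, 1 of 25 passed, Gabrg3, higher, where 0.842% of all genes passed. In DMH against VMH, 3 of 25 passed, Gabre and Gabrg3 higher and Glra3 lower, where 1.23% of all genes passed. Glra3 entered the test only through its VMH arrays, so it had to differ and lends that count no support. It was also among the 11 of 25 above and lends that count none either. In VMH against Arc, 1 of 25 passed, Gabre, lower, where 0.977% passed. None of the 25 passed in Arc against the mean of DMH and VMH, where 0.613% of all genes did, nor in DMH against Arc, where 0.427% did. In each of those comparisons 5 of 25 had an unadjusted limma p under 0.05, a level that 15.7% of all genes reached in the first and 16.6% in the second. The 5 in DMH against Arc included Glra3, which was well above background on no DMH array and on 1 Arc array. Glrb, not well above background on Arc replicate 1, was among the 5 in both comparisons and among the 11 in VMH. Gabra5, also among the 11, was not well above background on DMH replicate 3. The comparisons share arrays and are not independent of each other.

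**Figure D1:**
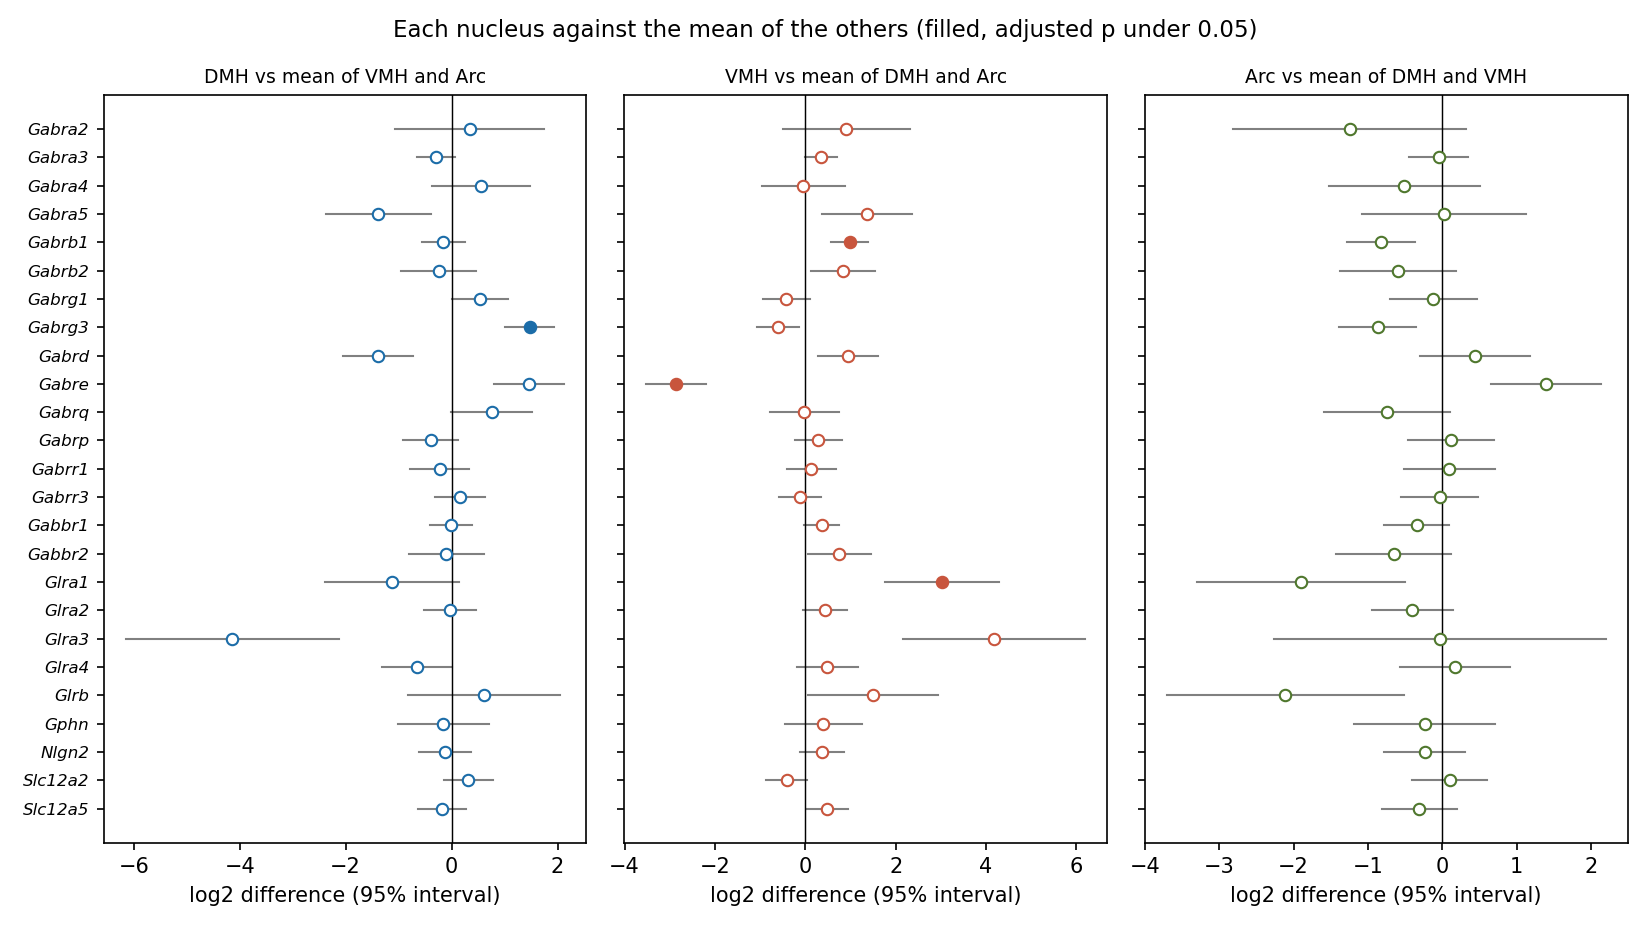
Differences (log2) of each nucleus from the mean of the other nuclei for the 25 tested genes, with 95% intervals from the limma model. Filled symbols passed an adjusted p of 0.05: Gabre, Gabrb1 and Glra1 in VMH, and Gabrg3 in DMH. No symbol is filled in Arc. The differences of Glra3, Glrb and Gabra5 include arrays not well above background.

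The largest contrast among the ionotropic GABA receptor genes was that of Gabre, which encodes the epsilon subunit, a subunit known for restricted expression in the brain, the hypothalamus included. Gabre had log2 signals of -1.84, -1.001 and -1.96 on the VMH arrays, against 1.48, 1.55 and 0.81 in DMH and 1.33 and 1.14 on the Arc arrays. All 3 VMH arrays lay below all 5 others, while the DMH and Arc arrays overlapped. The VMH mean was -1.60 ± 0.52 (SD, n = 3), against 1.28 ± 0.40 in DMH (n = 3) and 1.23 ± 0.14 in Arc (n = 2). Gabre was 7.25-fold lower in VMH than the mean of DMH and Arc, a difference of -2.86 ± 0.29 (log2, SE; limma, adjusted p = 0.0061).

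Pair by pair, Gabre was 2.88 ± 0.32 higher in DMH than in VMH (limma, adjusted p = 0.0085). It was lower in VMH than in Arc, by -2.83 ± 0.36 (limma, adjusted p = 0.0152). Between DMH and Arc the difference was 0.05, with a 95% interval of -0.78 to 0.87, so a difference of somewhat under 1 log2 unit in either direction lay within the error. The call for VMH against the mean of the other nuclei was kept when any 1 array was left out. That of DMH against VMH was lost without DMH replicate 2 (adjusted p = 0.0539). The call of VMH against Arc was lost when DMH replicate 2, VMH replicate 1, VMH replicate 3, Arc replicate 1 or Arc replicate 2 was left out, with limma adjusted p-values of 0.0709, 0.0601, 0.0597, 0.0811 and 0.126 in that order. In the settings without DMH replicate 2 or either Arc array, the other Gabre probe was the brighter and stood for the gene.

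That other probe reads the end of the coding sequence and lies at chrX:69502778-69502837 on the minus strand (mm9). It is printed as the second measurement of the largest GABA receptor difference, up to a stop codon in capitals, and the bases after it are left out:
Gabre: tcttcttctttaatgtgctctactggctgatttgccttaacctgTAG
The second probe gave -1.41, -0.72 and -1.25 on the VMH arrays, against 1.43, 1.01 and 0.77 in DMH and 0.60 and 0.97 on the Arc arrays. Its VMH arrays again lay below all others. The size was smaller than with the tested probe, 2.20 for DMH minus VMH and -1.91 for VMH minus Arc.

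**Figure D2:**
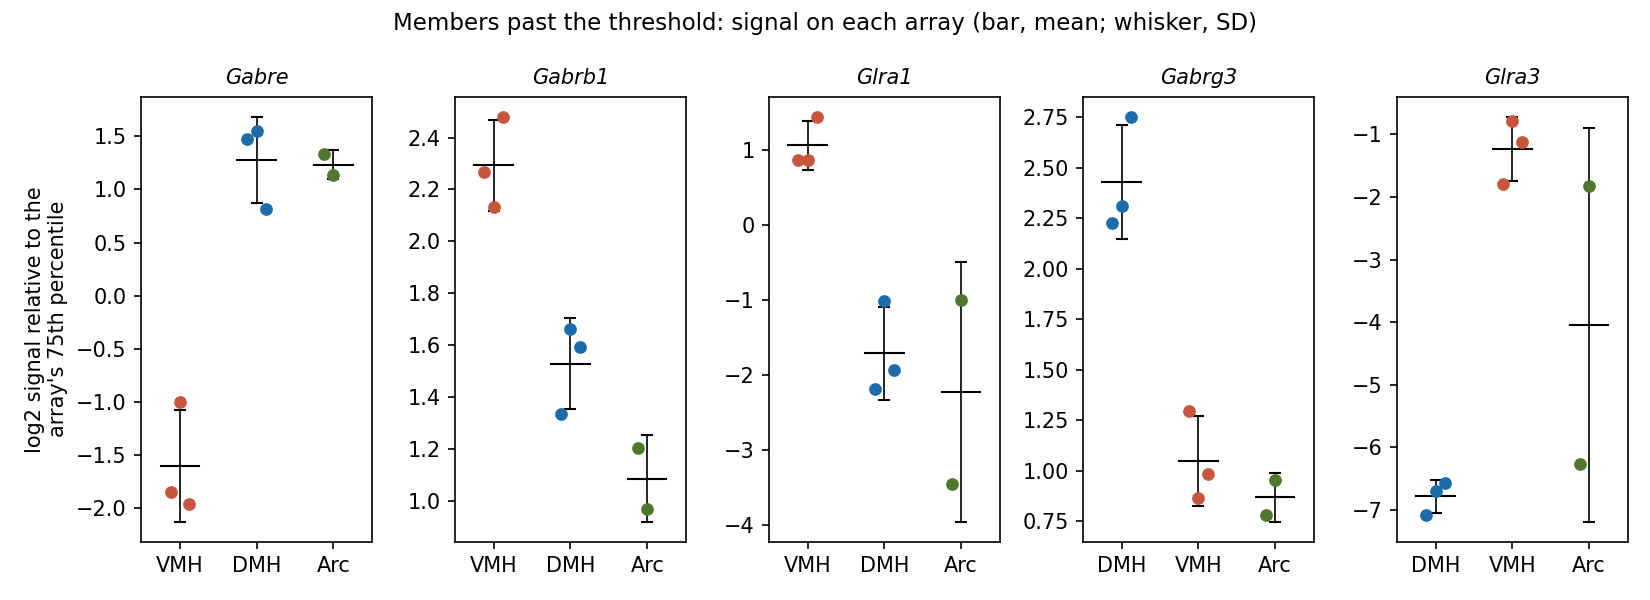
Log2 signal relative to the array's 75th percentile for the 5 genes past the threshold in any comparison. Dots are arrays, bars are means and whiskers are SDs, with 3 VMH, 3 DMH and 2 Arc arrays. The VMH arrays of Gabre lie below, and those of Gabrb1 and Glra1 above, all other arrays, and the DMH arrays of Gabrg3 lie above all others.

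The genes next to Gabre on the X chromosome passed in no comparison. The probe of Gabra3, the alpha-3 subunit gene, lies 0.176 Mb from that of Gabre (mm9), and the probe of Gabrq, the theta subunit gene, 0.405 Mb further on. Gabra3 had 2.76, 2.62 and 2.87 on the VMH arrays, against 2.36, 2.30 and 2.33 in DMH and 2.56 and 2.42 on the Arc arrays. Its VMH arrays lay above all others, the opposite side from Gabre, at a difference of 0.34 (95% interval -0.02 to 0.70; limma, adjusted p = 0.407). Gabrq averaged 0.03 in DMH, -0.49 in VMH and -0.97 in Arc and passed in no comparison, with DMH 1.00 above Arc (limma, adjusted p = 0.277).

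Of the beta subunits, which are part of most GABA-A receptors, 1 of 2 tested was higher in VMH. Gabrb1, the beta-1 subunit gene, had 2.27, 2.13 and 2.48 on the VMH arrays, against 1.33, 1.66 and 1.59 in DMH and 1.20 and 0.97 on the Arc arrays. The VMH arrays lay above every other array, and the Arc arrays below every DMH array. The means were 2.29 ± 0.18 in VMH (SD, n = 3), 1.53 ± 0.17 in DMH (n = 3) and 1.09 ± 0.17 in Arc (n = 2). Gabrb1 was 1.98-fold higher in VMH than the mean of DMH and Arc, a difference of 0.98 ± 0.18 (log2, SE; limma, adjusted p = 0.0456). No single pair passed: VMH exceeded Arc by 1.21 (adjusted p = 0.0537), and DMH minus VMH was -0.76 (adjusted p = 0.140). This call lay near the threshold and was lost when any 1 of the 8 arrays was left out, with limma adjusted p-values of 0.0704 to 0.172 and differences of 0.89 to 1.07. Gabrb2, the beta-2 subunit gene, averaged 4.19 ± 0.28 in VMH, 3.47 ± 0.53 in DMH and 3.23 ± 0.55 in Arc. Its VMH arrays lay above all others, at 0.84 (95% interval 0.14 to 1.54; limma, adjusted p = 0.292).

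Gabrb1 belongs to a cluster on chromosome 5, in which the probes of Gabrg1, Gabra2, Gabra4 and Gabrb1 follow each other at 0.209, 0.609 and 0.567 Mb (mm9). The differences in VMH from the mean of DMH and Arc ran to both sides within it, with -0.42 for Gabrg1, 0.91 for Gabra2, -0.05 for Gabra4 and 0.98 for Gabrb1.

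Among gamma subunits, which link GABA-A receptors to the synapse and to benzodiazepine binding, Gabrg3 was higher in DMH. Gabrg3, the gamma-3 subunit gene, had 2.23, 2.31 and 2.75 on the DMH arrays, against 1.30, 0.87 and 0.99 in VMH and 0.78 and 0.95 on the Arc arrays. The DMH arrays lay above all others, while VMH and Arc overlapped. The means were 2.43 ± 0.28 in DMH (SD, n = 3), 1.05 ± 0.22 in VMH (n = 3) and 0.87 ± 0.12 in Arc (n = 2). Gabrg3 was 2.77-fold higher in DMH than the mean of VMH and Arc, by 1.47 ± 0.20 (log2, SE; limma, adjusted p = 0.0244), and 1.38 ± 0.22 higher than in VMH alone (limma, adjusted p = 0.0336). DMH minus Arc was 1.56 ± 0.25 and missed the threshold (limma, adjusted p = 0.0531).

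Leaving out DMH replicate 1, 2 or 3, VMH replicate 2 or 3, or Arc replicate 1 ended the call of Gabrg3 in DMH against the mean (limma, adjusted p = 0.0573 to 0.0912, differences of 1.31 to 1.57). Leaving out any 1 of the 8 arrays ended the call against VMH alone (adjusted p = 0.0549 to 0.131). Gabrg3 had 3 further kept probes, with DMH minus VMH at 1.22, 1.41 and 1.22 and DMH minus Arc at 0.76, 1.22 and 0.56. All 4 probes placed DMH highest. For VMH minus Arc, in which Gabrg3 did not pass, the 3 further probes gave negative values, -0.46, -0.19 and -0.66, against 0.18 for the tested probe. The further probe at chr7:63979783-63979842 on the minus strand (mm9) is printed because it reads the last codons of Gabrg3, with the stop codon in capitals:
Gabrg3: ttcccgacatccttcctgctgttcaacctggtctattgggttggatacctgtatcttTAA
This probe gave 0.42, 0.24 and 0.30 on the DMH arrays, against -0.46, -1.32 and -0.92 in VMH and -0.75 and -0.12 on the Arc arrays. Here too every DMH array was above every other array. The probe of Gabra5, which encodes the alpha-5 subunit, lies 0.684 Mb from the tested probe of Gabrg3 and differed the other way. Gabra5 had -3.27, -3.22 and -4.83 on the DMH arrays, the last not well above background, against -2.28, -1.49 and -2.07 in VMH and -3.23 and -2.44 in Arc. It was at least 2.37-fold lower in DMH than the mean of VMH and Arc, which missed the threshold (limma, adjusted p = 0.197).

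Gabrg1, the gamma-1 subunit gene, was read by 10 spots of 1 probe per array, with an SD between spots of 0.07 to 0.20 log2 units. It had -0.74, -0.84 and -0.80 on the VMH arrays, against 0.37, -0.32 and -0.52 in DMH and -0.66 and -0.53 on the Arc arrays. The VMH arrays were the lowest 3, but DMH replicate 1 stood well above the other DMH arrays, and no comparison passed (VMH against the mean -0.42, limma, adjusted p = 0.493). A second Gabrg1 probe gave DMH minus VMH at 1.24, against 0.64 for the tested probe. It was well above background on 1 of 2 Arc arrays, and no difference from Arc is given for it.

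The other alpha subunits, which form part of the GABA site, passed in no comparison. Gabra2, the alpha-2 subunit gene, had 0.02, -1.88 and -2.27 on the DMH arrays, -0.0015, -1.51 and -1.48 in VMH and -1.92 and -2.95 on the Arc arrays. The first replicates of DMH and of VMH stood apart from the other arrays of their nuclei by more than 1 log2 unit, so the spread within a nucleus exceeded the difference between their means (DMH minus VMH -0.38). Gabra4, the alpha-4 subunit gene, showed the same first arrays highest, with -0.87, -2.58 and -1.88 in DMH, -1.63, -2.56 and -2.34 in VMH and -2.53 and -2.44 in Arc. Gabra6, known for its expression in cerebellar granule cells, was not well above background on any of the 8 arrays.

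Gabrd, the delta subunit gene, is known for extrasynaptic receptors that carry tonic current. It had -4.30, -3.12 and -3.31 on the DMH arrays, against -1.80, -2.20 and -2.05 in VMH and -2.24 and -2.47 on the Arc arrays. The DMH arrays were the lowest 3 and the VMH arrays the highest 3, but neither comparison passed (DMH minus VMH -1.56, limma, adjusted p = 0.0774, and DMH minus the mean of the others -1.39, limma, adjusted p = 0.0905). Gabrp, the pi subunit gene, averaged -1.22 in DMH, -0.77 in VMH and -0.88 in Arc and passed in no comparison.

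Of the rho subunits, which form GABA-gated channels best known from the retina, Gabrr1 averaged -0.79 ± 0.24 in DMH, -0.55 ± 0.40 in VMH and -0.58 ± 0.27 in Arc, and Gabrr3 averaged -2.97 ± 0.23, -3.15 ± 0.10 and -3.10 ± 0.41 in the same nuclei. The differences between nuclei lay within the spread of the arrays. Gabrr2 was well above background on 2 of 3 VMH arrays, at -3.29 and -3.15, and on no DMH or Arc array. Because VMH replicate 1, at -6.52, was not well above background, the probe was left out of the test, and no fold is given.

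The genes of both GABA-B receptor subunits passed in no comparison. Gabbr1, whose product binds GABA, had 3.58, 3.69 and 3.62 on the VMH arrays, 3.28, 3.64 and 3.23 in DMH and 3.13 and 3.19 on the Arc arrays. The Arc arrays were the lowest 2, while VMH and DMH overlapped (VMH minus Arc 0.47, 95% interval -0.01 to 0.95; limma, adjusted p = 0.363). The probes of Gabbr1 disagreed on DMH and Arc: DMH minus Arc was 0.22 with the tested probe, against -0.32 with a further probe, on which both Arc arrays lay above all DMH arrays, and 1.01 with another. On these probes, in the same order, DMH minus VMH was -0.25, -0.42 and 0.19, so they disagreed in sign there too. Gabbr2, whose product couples the dimer to G proteins, averaged 2.96 ± 0.21 in VMH, 2.39 ± 0.66 in DMH and 2.02 ± 0.25 in Arc (VMH minus Arc 0.94; limma, adjusted p = 0.318). The probes of Gabbr2 disagreed: DMH minus Arc was 0.37 with the tested probe, against -0.27 with a further one, which was not tested on its own. The remaining probe gave DMH minus VMH at 0.71, against -0.57 for the tested probe. It was well above background on 1 of 2 Arc arrays, and no difference from Arc is given for it.

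All 4 glycine receptor alpha subunit genes and the beta subunit gene had a positive difference in VMH from the mean of DMH and Arc. Of these 5, 1 passed, Glra1. The count of positive signs carries no test, and the median VMH difference over all genes tested was 0.01. Glra3 passed the filter only through its VMH arrays and lends that count no support. Glra2 and Glra4 differed by 0.44 and 0.49 (limma, adjusted p = 0.435 and 0.534). For Glra1, Glra2 and Glrb, Arc replicate 1 was the lowest of all arrays. Glra1, the alpha-1 subunit gene, best known from adult spinal cord and brainstem, had 0.87, 0.87 and 1.44 on the VMH arrays, against -2.19, -1.01 and -1.94 in DMH and -3.45 and -1.003 on the Arc arrays. The VMH arrays lay above all others, and DMH and Arc overlapped, with the Arc arrays more than 2 log2 units apart. The means were 1.06 ± 0.33 in VMH (SD, n = 3), -1.71 ± 0.62 in DMH (n = 3) and -2.23 ± 1.73 in Arc (n = 2). Glra1 was 8.17-fold higher in VMH than the mean of DMH and Arc, by 3.03 ± 0.55 (log2, SE; limma, adjusted p = 0.0466). Neither pair passed: VMH minus Arc was 3.29 (adjusted p = 0.0847) and DMH minus VMH -2.77 (adjusted p = 0.0924). The call was lost when any 1 of the 3 DMH or 3 VMH arrays was left out (limma, adjusted p = 0.0679 to 0.169, differences of 2.84 to 3.21) and kept without either Arc array. With either Arc array left out, Glra1 also passed as lower in DMH than in VMH.

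Glra3, the alpha-3 glycine receptor gene, was well above background on 3 of 3 VMH arrays, 1 of 2 Arc arrays and 0 of 3 DMH arrays. It passed the filter only through VMH and so had to differ between nuclei. It had -7.08, -6.70 and -6.56 on the DMH arrays, against -1.79, -0.78 and -1.13 in VMH and -6.27 and -1.82 on the Arc arrays. Arc replicate 1 was not well above background and sat with the DMH arrays, and Arc replicate 2 lay next to the VMH arrays. Glra3 was at least 12.5-fold lower in DMH than in VMH, a bound that sets each DMH array at the lowest signal well above background on that array (limma, adjusted p = 0.0442 for the measured difference). The bound holds for this scaling only: with normexp background correction the measured difference was -2.40, smaller than the bound (-3.65, log2). The call was lost after quantile scaling, after blocking on slide row or on replicate number, without the filter on dim probes, and when any 1 of the 3 DMH or 3 VMH arrays was left out (limma, adjusted p = 0.0568 to 0.154). VMH exceeded the mean of DMH and Arc at least 6.29-fold, which missed the threshold (limma, adjusted p = 0.0757). With either Arc array left out, Glra3 passed as higher in VMH and as lower in DMH, each against the mean of the rest, and without Arc replicate 1 also as lower in DMH than in Arc.

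The probe sequences of these genes are printed because a second Glra1 probe was above background on few arrays where the first was so on all 8. The tested Glra1 probe spans a splice junction, with its ends at chr11:55349979-55379742, the other reads the last codons at chr11:55328315-55328374, both on the minus strand, and the Glra3 probe reads the last codons at chr8:58604090-58604149 on the plus strand (mm9). Capitals mark a stop codon:
Glra1, tested: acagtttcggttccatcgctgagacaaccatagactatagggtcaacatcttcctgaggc
Glra1, other: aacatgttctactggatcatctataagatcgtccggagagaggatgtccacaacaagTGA
Glra3: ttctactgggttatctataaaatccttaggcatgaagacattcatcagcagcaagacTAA
The other Glra1 probe and the Glra3 probe matched at 35 of 54 overlapping bases (64.8%). The tested Glra1 probe and the Glra3 probe matched at 16 of 31 bases at best (51.6%). The other Glra1 probe was not kept: it was well above background on 2 of 3 VMH, 1 of 3 DMH and 0 of 2 Arc arrays, and no difference between nuclei is given for it.

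Glrb encodes the beta subunit, which anchors glycine receptors to gephyrin. It had -1.19, -0.17 and -1.30 on the VMH arrays, -1.28, -1.11 and -2.04 in DMH and -4.70 and -1.88 on the Arc arrays. VMH and DMH overlapped, and Arc replicate 1, not well above background, lay far below every other array. VMH exceeded Arc at least 4.11-fold with that array at the lowest signal well above background, and the comparison missed the threshold (limma, adjusted p = 0.230). For Glra1, Glra3 and Glrb alike, Arc replicate 1 was more than 2 log2 units below Arc replicate 2. Without Arc replicate 2, Glra1, Glra3 and Glrb passed as higher in VMH than in Arc and Gabre did not, and Glra1 and Glrb passed as lower in Arc than the mean of DMH and VMH, with the single Arc array assumed to vary like the other groups. Glra2, the alpha-2 gene, averaged -2.73 in VMH, -3.05 in DMH and -3.30 in Arc, and Glra4, the alpha-4 gene, -0.69, -1.46 and -0.91. The arrays of these genes overlapped between VMH and at least 1 other nucleus, and neither passed.

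The scaffold and adhesion genes passed in no comparison. Gphn, the gene of gephyrin, which clusters glycine and GABA-A receptors, averaged -1.46 ± 0.54 in VMH, -1.83 ± 0.73 in DMH and -1.88 ± 0.20 in Arc. The groups overlapped, with a VMH difference from the mean of 0.40 (95% interval -0.46 to 1.25; limma, adjusted p = 0.731). Nlgn2, the gene of neuroligin-2, an adhesion protein of inhibitory synapses, averaged 2.50 ± 0.17 in VMH, 2.17 ± 0.36 in DMH and 2.10 ± 0.18 in Arc, a VMH difference of 0.37 (95% interval -0.13 to 0.86; limma, adjusted p = 0.529).

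The cotransporter genes differed to opposite sides in VMH without passing. Slc12a5, the gene of the neuronal chloride extruder KCC2, had 4.65, 4.69 and 4.66 on the VMH arrays, against 3.84, 4.49 and 4.33 in DMH and 4.02 and 4.25 on the Arc arrays. Slc12a2, the gene of the chloride loader NKCC1, had 0.25, 0.13 and 0.29 on the VMH arrays, against 1.07, 0.43 and 0.63 in DMH and 0.68 and 0.45 on the Arc arrays. The VMH arrays were the highest 3 for Slc12a5 and the lowest 3 for Slc12a2. The differences from the mean of DMH and Arc were 0.49 (95% interval 0.04 to 0.94; limma, adjusted p = 0.337) and -0.42 (95% interval -0.87 to 0.04; limma, adjusted p = 0.420).

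**Figure D3:**
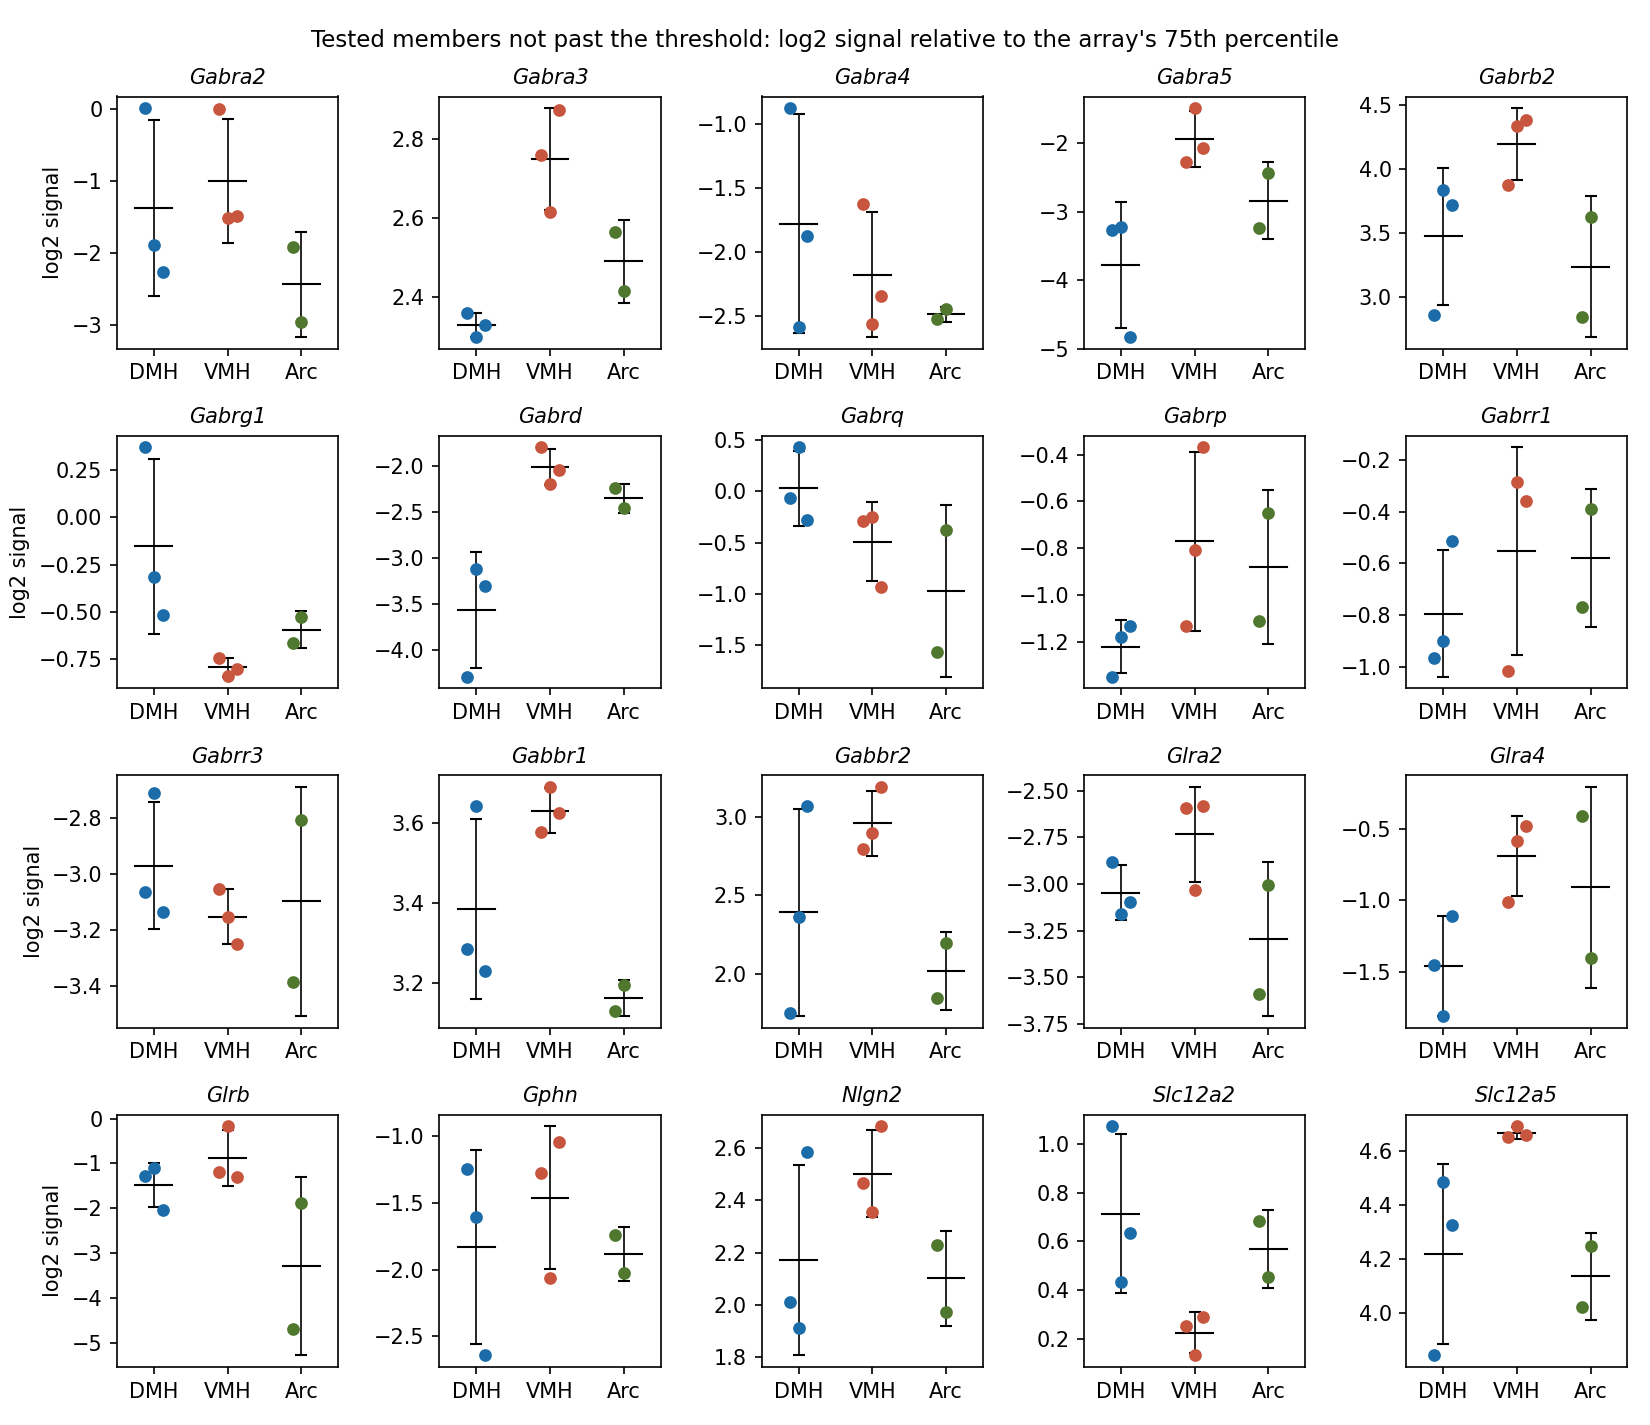
Log2 signal relative to the array's 75th percentile for the 20 tested genes that passed in no comparison. Dots are arrays, bars are means and whiskers are SDs (3 DMH, 3 VMH and 2 Arc arrays), and each panel has its own scale. The first DMH and VMH arrays stand high for Gabra2 and Gabra4, and the VMH arrays are the highest 3 for Gabrb2 and Slc12a5.

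Across the 25 tested genes, the VMH arrays lay outside the range of all other arrays for 11 (44%), a separation that 9.52% of all genes had. They were above for Gabra3, Gabra5, Gabrb1, Gabrb2, Gabrd, Glra1, Glra3 and Slc12a5, and below for Gabre, Gabrg1 and Slc12a2. These separations are those of the tested probe: on a second kept probe the VMH arrays of Gabre separated too, and those of Gabra3, Gabrg1 and Slc12a5 did not. Among the 22 genes well above background on all arrays the count was 9 (40.9%), against 9.67% of the 24037 such genes on the array. For DMH the count was 6 of 25 (24%), against 9.26% of all genes, with Gabrg1 and Gabrg3 above and Gabra3, Gabrd, Gabrp and Glra3 below. Glra3 had to differ, and among the 22 genes well above background on all arrays the count was 5 (22.7%), against 9.4% of such genes. On further kept probes the DMH arrays of Gabra3 and Gabrg1 did not separate, and those of Gabrg3 did on some only. For Arc the count was 2 of 25 (8%), Gabrb1 and Gabbr1, both below, against 16.7% of all genes, and Gabbr1 did not separate on the further probe named above. The median difference of the 25 was 0.40 in VMH, -0.13 in DMH and -0.24 in Arc, each from the mean of the other nuclei, against 0.01, -0.04 and 0.04 over all genes tested. These counts and medians describe the list and carry no test.

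Some cell type marker lists moved with the nuclei. All 8 neuron markers had positive differences in VMH, with a median of 0.22 and none past the threshold, and their mean log2 signal was 3.69 to 3.75 on the VMH arrays, 3.40 to 3.49 in DMH and 3.17 to 3.32 on the Arc arrays. Their summed signal (log2) had another order, 8.01 to 8.27 in VMH, 7.61 to 7.88 in DMH and 8.14 to 8.18 in Arc. Microglia markers had negative VMH differences for 8 of 10 genes (median -0.70, none past the threshold), with mean log2 signals of -0.50 to 0.11 on VMH arrays, 0.15 to 0.34 on DMH arrays and 0.50 to 0.67 on Arc arrays. Their summed signal was lowest in DMH, at 7.32 to 7.56 in VMH, 6.83 to 7.24 in DMH and 7.73 to 7.93 in Arc. Oligodendrocyte markers had positive VMH differences for 7 of 9 genes (median 0.59) and negative Arc differences for 9 of 9 (median -0.41), none past the threshold. Their mean log2 signals were -0.89 to 0.01 in VMH, -0.71 to -0.34 in DMH and -1.20 to -1.02 in Arc. Their summed signals were 4.25 to 4.88, 3.90 to 4.40 and 3.29 to 4.16 in that order. The neuron marker Syt1 passed as 2.78-fold lower in Arc than the mean of DMH and VMH, and as 2.74-fold higher in DMH and 2.83-fold higher in VMH, each against Arc alone (limma, adjusted p = 0.0156, 0.0312 and 0.0150 in that order). Astrocyte markers had positive DMH differences for 7 of 8 tested genes (median 0.49), and Gjb6, a gap junction gene of astrocytes, passed. Their summed signal (log2) was not highest in DMH, at 5.50 to 5.82, against 5.69 to 5.98 in VMH and 5.63 to 5.83 in Arc. Tanycyte and ependymal markers had negative DMH differences for 6 of 7 tested genes (median -0.90), and Col23a1 passed. Crym, of the same list, passed as higher in VMH than the mean of DMH and Arc, and as lower in DMH than in VMH. The list as a whole was split in VMH, with 4 positive and 3 negative differences (median 0.06). Its summed signal (log2) was highest in Arc, at 2.17 to 2.27, against 1.55 to 1.83 in VMH and 0.41 to 0.95 in DMH. The part of these cells in the differences above was not tested. In such pooled samples, fewer cells that express a gene and less RNA per cell cannot be told apart.

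**Figure D4:**
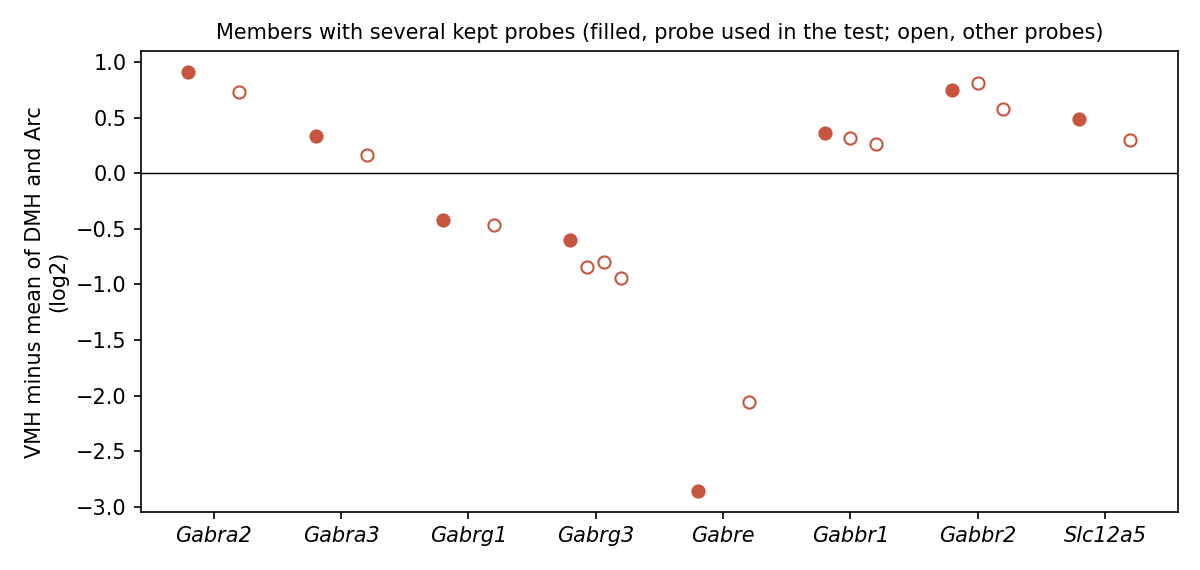
Difference of VMH from the mean of DMH and Arc (log2) for the 8 genes with several kept probes. Filled symbols are the probes used in the test and open symbols the others. All probes of a gene lie on the same side of 0 in this comparison. An open symbol of Gabrg1 and one of Gabbr2 include Arc replicate 1, on which those probes were not well above background. For that Gabbr2 symbol the side depends on this array.

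Around the receptors, 4 lists of related genes were followed. Of 9 tested genes for making, transporting and breaking down GABA and glycine, 3 were lower in VMH than the mean of DMH and Arc, and none was higher, where 1.34% of all genes passed in either direction. These were Gad1 and Gad2, which encode the enzymes that make GABA, and Slc32a1, which encodes the vesicular transporter. Gad2 averaged -2.001 in VMH, 1.84 in DMH and 1.68 in Arc, a difference of -3.76 (limma, adjusted p = 0.0017). Gad1 was at least 30.7-fold lower in VMH on this scaling, where 2 of 3 arrays were not well above background (limma, adjusted p = 0.0132). Gad1 thus passed the filter only through DMH or Arc, so it had to differ and lends that count of 3 no support. Its measured difference was -5.24, against -3.45 with normexp background correction and -4.75 without VMH replicate 1. Slc32a1 was 6.62-fold lower (limma, adjusted p = 0.017). The call of Gad1 against the mean was lost without VMH replicate 1 or VMH replicate 3, and so was that of Slc32a1, with limma adjusted p-values up to 0.0644 for Gad1 and 0.0821 for Slc32a1.

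Gad2 was also higher in DMH than the mean of VMH and Arc, by 2.00 (limma, adjusted p = 0.0244). Its DMH and Arc means lay 0.15 apart (adjusted p = 0.857). The call was lost when any DMH array, VMH replicate 2, VMH replicate 3 or Arc replicate 2 was left out, or when slide row was blocked (limma, adjusted p = 0.0562). In the pairs, Gad1, Gad2 and Slc32a1 were higher in DMH than in VMH and lower in VMH than in Arc, and none of the 9 passed between DMH and Arc, where 2 of 9 had an unadjusted limma p under 0.05, against 16.6% of all genes. The filter bears on the pair calls of Gad1 as on its call above. The pair calls of Gad2 were kept when any 1 array was left out. That of Gad1 for DMH against VMH was lost without DMH replicate 1 or 2 or VMH replicate 1 or 3, and that for VMH against Arc without DMH replicate 2, VMH replicate 1 or 3 or either Arc array, with limma adjusted p-values up to 0.105. Those of Slc32a1 were lost without any 1 array other than VMH replicate 2 for DMH against VMH, and for VMH against Arc without any other than VMH replicate 2 or DMH replicate 2, with limma adjusted p-values up to 0.147. Blocking on slide row ended the pair calls of Gad1 (limma, adjusted p = 0.0575 for DMH against VMH and 0.0608 for VMH against Arc) and of Slc32a1 (0.111 and 0.0596).

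Of 8 genes for GABA-B auxiliary subunits and the potassium channels that GABA-B receptors open, Kctd12 and Kctd16, whose products bind GABA-B receptors, passed as higher in DMH than the mean of VMH and Arc, where 0.842% of all genes passed in either direction. Kctd12 averaged 0.62 in DMH, -2.40 in VMH and -2.21 in Arc, a 7.61-fold difference (2.93 ± 0.31, log2, SE; limma, adjusted p = 0.0133) kept when any 1 array was left out. It was also higher in DMH than in Arc alone (2.83; limma, adjusted p = 0.0372), a call lost after blocking on slide row (0.0719) and without DMH replicate 2 or 3 or any VMH or Arc array. Kctd16 averaged -3.83 in DMH, -6.32 in VMH and -5.05 in Arc, and no VMH or Arc array was well above background, which leaves a bound of at least 1.24-fold. Kctd16 passed the filter only through DMH and so had to differ, and its calls, in DMH and in VMH against the mean and in DMH against VMH, support nothing. With normexp background correction these differences were 0.34, -0.34 and 0.45, against 1.86, -1.88 and 2.49 as measured, and all 3 calls were lost, as they were with a trend and robust eBayes (limma, adjusted p = 0.0540 to 0.100). Kctd12 also passed as higher in DMH than in VMH alone (limma, adjusted p = 0.0097). None of 31 genes for scaffolds, adhesion and receptor trafficking passed in any of the 6 comparisons, nor did any of 11 genes for other chloride transport and its kinases. At an unadjusted limma p under 0.05 stood 1 to 9 of the 31 and 0 to 2 of the 11, by comparison, against 13.1 to 16.6% of all genes. The median VMH difference was 0.14 in the scaffold list and -0.05 in the chloride list.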

How the data were processed

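Spot intensities of the red (Cy5) channel of 8 Agilent arrays were used, 3 of DMH, 3 of VMH and 2 of Arc. These intensities are, per the file headers, the background-subtracted and detrended signals of Agilent Feature Extraction (version 11.5.1.1), with no scaling between arrays. The labels' protocols name proteinase K and acid phenol for the RNA and a chemical Cy5 label. All arrays lay on 1 slide and 1 scan day. The deposited value table of the whole series was not used, since its columns hold evenly spaced numbers for nearly all entries.

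From these intensities, log2 minus the 75th percentile of the array's 59305 non-control spots was computed (55681 probes). Spots flagged as outliers were dropped, saturated ones were kept, and repeated spots were averaged. The dim-probe filter left 41477 probes, and the brightest probe stood for its gene, in 27422 genes. The model (limma 3.58.1 in R 4.3.3, with tables read by data.table version 1.17.8) held a mean per nucleus over all 8 arrays, with 5 residual and 2.78 prior degrees of freedom, and gave a median residual SD of 0.355 (log2). A bound ("at least") sets each array on which a probe was not well above background at the lowest signal well above background there. It covers those arrays only, not the spread between arrays, and applies to this scaling only. The script was tested on simulated data. Alternatives were normexp, quantile and detected-probe scaling, other filters, the mean of probes, a trend with robust eBayes, blocks for replicate number and slide row, and leaving out each array.

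The genes and the lists around them were chosen with earlier results of these data known. Genes past the threshold are given array by array, and the others by their means or arrays. All 27 names matched RefSeq symbols of GRCm38.p6, used for names only. Positions and sequences are those of the array's probes (mm9), and coding ends were read from the printed letters, with no annotation of that build used.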

Additional observations from a re-analysis of the deposited data

How the results depend on the processing

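Of the 8 called differences among the receptor genes, none changed sign under any alternative, and that of Gabre in VMH against the mean of DMH and Arc kept its call under 17 of 17. The others kept it under 16 of 17 (Gabre, DMH against VMH), 11 of 17 (Gabre, VMH against Arc), 9 of 17 (Gabrg3 in DMH), 6 of 17 (Gabrg3, DMH against VMH), 6 of 17 (Gabrb1), 9 of 17 (Glra1) and 6 of 16 (Glra3, which could not be tested where all arrays had to be well above background). Leaving out 1 array gave 0 to 2 called genes in DMH against the mean of the others, 1 to 3 in VMH against the mean, 0 to 2 in Arc against the mean, 0 to 3 in DMH against VMH, 0 to 1 in DMH against Arc and 0 to 3 in VMH against Arc. With normexp background correction 1 gene was called in DMH against Arc and 3 in VMH against Arc, with quantile scaling 1 in DMH against Arc, and with no filter 1 in VMH against the mean and 1 in DMH against VMH. With only probes well above background on all arrays, 1 was called in DMH against Arc and 2 in VMH against Arc, and with the mean of a gene's probes 2 in VMH against Arc. With a trend and robust eBayes, 2 were called in DMH against the mean, 1 in DMH against Arc and 3 in VMH against Arc. With the slide row as a block, 0 were called in DMH against the mean and 1 in DMH against VMH. With the replicate number as a block, 0 were called in DMH against the mean, 1 in VMH against the mean (Gabre), 1 in DMH against VMH (Gabre) and 0 in VMH against Arc. That block also ended the calls of Gad1 (limma, adjusted p = 0.0621 in VMH against the mean, 0.0691 in DMH against VMH and 0.113 in VMH against Arc), Kctd12 in DMH against Arc (0.0704) and Kctd16 in DMH and in VMH against the mean (0.0918 and 0.0708). Same-numbered arrays of different nuclei correlated at 0.0734 to 0.188 in their deviations from the nucleus means. Arrays of different numbers and nuclei correlated at -0.128 to 0.0173, and every same-numbered pair lay above every other pair. Deviations cancel within a nucleus, so these correlations are not independent, and those with the 2 Arc arrays mirror each other. The separation is thus in part built in. The labels do not say that a number marks a shared animal or day, so what it stands for cannot be told. The cause of the changes in calls was not tested. No filter tested more genes, and a left-out array left fewer samples. Genes not well above background on some arrays (Glra3, Glrb, Gabra5, Gad1, Kctd16) have differences that rest in part on bounds, and Arc, with 2 arrays, had the least precision.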
